A study of Homo sapiens with 6 samples.

Results

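The 33 genes described here encode the folding machinery of the endoplasmic reticulum (ER), the machinery that removes misfolded proteins from it, and the sensors that set the level of both. They were chosen by gene symbol, and all 33 were found among the 58735 genes of the deposited count table. By role they comprised 14 folding genes (8 chaperones and chaperone cofactors, 6 genes of disulfide formation), 12 genes of ER-associated degradation, the 2 stress sensors ERN1 and ATF6 with the transcription factor XBP1, 3 genes of the translocon and of export, and WFS1. All 33 passed the filter on low counts and were tested. The cells were MDA-MB-231, a human line of triple-negative breast cancer that has long been in culture. Their RNA was sequenced in 3 libraries after transfection with DNAJC12v (genotype DNAJC12 overexpression) and in 3 after transfection with empty vector (genotype control). The sources used here name neither the promoter that drives DNAJC12 nor the time after transfection, nor whether libraries of a group were separate cultures, so p-values cover only the spread between these libraries, which may be technical. DNAJC12 is a J-domain protein of the cytosol, one of the co-chaperones that hand clients to heat shock chaperones. The comparison set genes of ER folding and of ER degradation against each other for their response to added DNAJC12.

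As background, proteins that enter the secretory pathway fold in the ER lumen with the help of the chaperone BiP (HSPA5), the lectins calnexin and calreticulin, and disulfide isomerases. Chains that fail to fold are recognised, moved back through the ER membrane, tagged with ubiquitin by the SYVN1 and SEL1L ligase, and pulled into the cytosol by the ATPase VCP for destruction by the proteasome. When unfolded chains build up, the sensors IRE1 (ERN1), ATF6 and PERK start the unfolded protein response: IRE1 splices the XBP1 message, ATF6 is cut to release a transcription factor, and PERK slows translation and favours ATF4. ATF6 and XBP1 act on promoters through ER stress response elements, and ATF4 through a composite element shared with C/EBP factors.

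The sequences below show that element in members whose RNA lay on both sides of the control level. RefSeq promoter windows (GRCh38.p14) were found for 29 of the 33 members (not for PDIA3, SEC24D, DERL1 and DERL3), and the 250 bases before each start were searched on both strands. The ER stress response element (ERSE: CCAAT, any 9 bases, CCACG) was present for 8 members. Its second form (ERSE-II: ATTGG, any 1 base, CCACG) was present for 3. The unfolded protein response element (UPRE, TGACGTGG) was present for 2, HYOU1 and VCP. The ATF4 composite element (CARE) was searched only as TGATGNAAT and was present for 0 in that form. Forms of CARE with another last base were not searched. Of 35116 windows of the same length over all genes, 0.074% held ERSE, 0.0513% ERSE-II, 0.612% UPRE and 0.888% the searched form of CARE. In the stretches printed here, 5′ to 3′ on the gene's strand and ending before both the RefSeq start and the GENCODE 29 gene, capitals mark the matches.
HERPUD1, chr16:56931892-56932047, plus strand, 156 bases: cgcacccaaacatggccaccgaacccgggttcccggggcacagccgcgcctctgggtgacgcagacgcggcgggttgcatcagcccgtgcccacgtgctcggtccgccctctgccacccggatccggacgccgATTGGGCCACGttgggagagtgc
HSPA5, chr9:125241344-125241593, minus strand, 250 bases: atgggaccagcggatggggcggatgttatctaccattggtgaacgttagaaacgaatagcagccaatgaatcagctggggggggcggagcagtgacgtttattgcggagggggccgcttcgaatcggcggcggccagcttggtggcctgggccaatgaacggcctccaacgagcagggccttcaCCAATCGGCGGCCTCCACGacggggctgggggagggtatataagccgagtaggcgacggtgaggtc
HYOU1, chr11:119057206-119057455, minus strand, 250 bases: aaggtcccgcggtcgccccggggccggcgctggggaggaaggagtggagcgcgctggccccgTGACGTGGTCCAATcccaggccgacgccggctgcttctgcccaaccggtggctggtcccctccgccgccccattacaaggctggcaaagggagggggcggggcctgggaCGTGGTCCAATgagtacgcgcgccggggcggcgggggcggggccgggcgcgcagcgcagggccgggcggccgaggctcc
XBP1, chr22:28800598-28800819, minus strand, 222 bases: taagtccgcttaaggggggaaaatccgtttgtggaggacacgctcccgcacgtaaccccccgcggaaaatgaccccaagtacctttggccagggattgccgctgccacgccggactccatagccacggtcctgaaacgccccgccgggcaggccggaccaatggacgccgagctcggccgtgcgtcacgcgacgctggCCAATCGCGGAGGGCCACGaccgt
CALR, chr19:12938359-12938577, plus strand, 219 bases: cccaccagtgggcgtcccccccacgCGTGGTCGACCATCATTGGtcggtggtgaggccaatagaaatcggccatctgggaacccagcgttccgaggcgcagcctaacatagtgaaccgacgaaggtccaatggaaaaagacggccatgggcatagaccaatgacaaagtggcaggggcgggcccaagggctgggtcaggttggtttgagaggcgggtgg
SDF2L1, chr22:21642052-21642260, plus strand, 209 bases: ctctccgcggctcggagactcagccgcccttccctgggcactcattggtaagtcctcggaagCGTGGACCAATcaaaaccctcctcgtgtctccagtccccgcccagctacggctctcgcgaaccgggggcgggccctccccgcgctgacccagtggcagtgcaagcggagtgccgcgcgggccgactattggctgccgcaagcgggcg
The capitals are an ERSE in HSPA5, XBP1 and CALR and an ERSE-II in HERPUD1 and SDF2L1, reversed in CALR and SDF2L1. HYOU1 has 2 reversed ERSE-II, of which the one farther from the start shares bases with a UPRE. The other members with ERSE were CANX, CRELD2, ERO1B, HSP90B1 and PDIA6. Such a match is a description of the letters and not evidence that a factor was bound. The 11 members with either form of ERSE had log2 fold changes from -0.53 to 1.16 with a median of 0.14, against a median of 0.08 for the 18 members whose windows had neither. Fold changes are those of DNAJC12 libraries against empty vector libraries, fitted by edgeR as given under the data processing.

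The libraries held 17967283 to 18887497 counts. DNAJC12 had 522, 523 and 492 counts in the DNAJC12 libraries and 1, 0 and 0 in the empty vector libraries, where 3 counts, the upper limit that a count of 0 allows, equal 0.160 to 0.167 CPM, the unit of counts scaled to the same library size (TMM) used for all levels here. Such floors cover counting error only. All 8 markers of the labelled line (among them VIM, CD44 and AXL) had at least 10 CPM in every library, and 3 of 6 luminal breast markers (ESR1, PGR and FOXA1) stayed under 1 CPM in every library. Summed luminal markers were 8.57 to 13.8 CPM with DNAJC12 and 13.0 to 15.3 CPM with empty vector; GATA3 was at 3.78 to 5.44 CPM and CDH1 at 2.46 to 5.11 CPM over all libraries, with overlapping groups, while TFF1 had 2.10, 3.67 and 1.62 CPM against 5.53, 6.79 and 6.39 CPM without overlap, and its part in the results was not tested. Of markers of other cells, 4 of 6 for fibroblasts, 3 of 5 for endothelium and 5 of 6 for leukocytes were under 1 CPM in every library, with CD3E at 0. Summed endothelial markers were 6.32 to 9.92 CPM with DNAJC12 and 17.8 to 25.9 CPM with empty vector, a gap carried by PECAM1 (3.8 to 5.5 CPM against 15.1 to 22.7 CPM). Of the rest, CDH5, VWF and TEK were under 1 CPM in every library and KDR was not. The part of this gap in the results was not tested. The second DNAJC12 library stood apart from the other two of its group: the mean GC content of its counted RNA was 54.0%, against 51.4 and 52.4%, and the empty vector libraries had 52.0, 53.4 and 52.9%. Counts of members called are given with and without it, as are the values of several members.

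Of the 33 members, 1 (3.03%) rose, none fell and 32 did not pass. The gene that rose was HERPUD1, of the degradation machinery. Over all 14520 genes tested, 0.585% were called higher and 0.661% lower, where the edgeR quasi-likelihood p, adjusted by Benjamini-Hochberg, was under 0.05. Without adjustment, 6 members were higher and 3 lower at a p under 0.05, where 7.25% and 6.86% of all genes were. The DESeq2 Wald test also called HERPUD1 higher and 0 members lower, where it called 1.99% and 1.9% of all genes. With no filter on low counts, HERPUD1 and SEL1L were higher and WFS1 lower, at 1.34% and 1.18% of all genes. In 7 members (21.2%) every DNAJC12 library lay above every empty vector library, and in 4 (12.1%) every one lay below. Over all genes tested these shares were 9.26% and 10.8%. The median log2 fold change was 0.11 over the members and 0.05 over all genes tested.

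**Figure D1:**
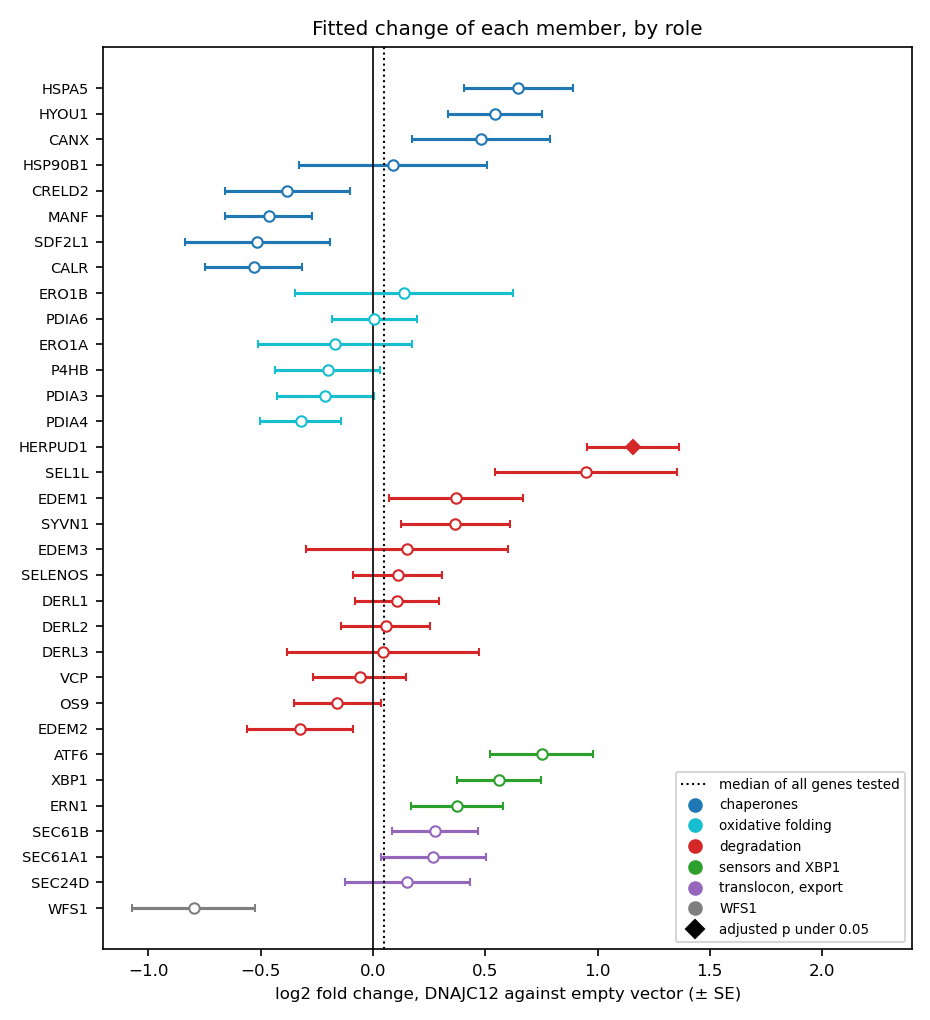
Fitted log2 fold change of each of the 33 members, DNAJC12 against empty vector (x axis, bars ± SE), grouped by role and coloured as in the key. The filled diamond is HERPUD1 at 1.16, the 1 member past the threshold; the sensors ATF6 and ERN1 and XBP1 lie above 0, and the chaperones spread from -0.53 to 0.65.

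HERPUD1 encodes a ubiquitin-like protein of the ER membrane that helps assemble the degradation ligase and is itself induced by ER stress. The gene (ENSG00000051108, plus strand of chromosome 16, 56932048 to 56944863 in GRCh38) was read at 148, 168 and 164 CPM in DNAJC12 libraries 1 to 3 and at 69.3, 61.2 and 84.7 CPM in empty vector libraries 1 to 3. The groups were well apart, and the second DNAJC12 library was the highest of all, not the lowest. The mean went from 71.7 ± 11.96 to 160 ± 10.5 CPM (SD, n = 3), a 2.23-fold rise and a log2 fold change of 1.16 ± 0.21 SE with an edgeR adjusted p of 0.0312. The size held without any 1 library, from 1.03 to 1.30, but the call did not: the edgeR adjusted p was 0.184 without DNAJC12 library 3, and 0.199, 0.200 and 0.135 without empty vector libraries 1, 2 and 3. No member was called in those 4 fits, where 0.128%, 0.101%, 0.141% and 0.107% of all genes were called higher and 0.0403%, 0.0671%, 0.134% and 0.0739% lower, in the same order. Without DNAJC12 library 1, HERPUD1 was again the 1 member called, at 0.95% of all genes higher and 0.728% lower. Without both libraries numbered 2 its log2 fold change was 1.01 ± 0.19 SE, with an edgeR adjusted p of 6.53e-06. The edgeR p before adjustment was 1.12e-07 there and 0.000237 with all 6 libraries, at a similar ratio of change to SE. The smaller p thus came from how that fit of fewer libraries weighed its variance estimates, and is not stronger evidence.

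The sensors and XBP1 all lay above their controls. ATF6, the membrane-bound factor that is cut on stress, was read at 123, 79.8 and 108 CPM with DNAJC12 and 68.6, 51.7 and 64.5 CPM with empty vector. The lowest DNAJC12 library, the second, was still above every control. Its log2 fold change was 0.75 ± 0.23 SE, with an edgeR adjusted p of 0.172, the lowest among the 32 members not called. XBP1, the target of IRE1 splicing, was read at 211, 254 and 229 CPM against 155, 152 and 164 CPM. Here the second DNAJC12 library was the highest and the groups did not overlap. The log2 fold change was 0.56 ± 0.19 SE, with an edgeR adjusted p of 0.207. Counts per gene do not separate spliced from unspliced XBP1. ERN1, the IRE1 kinase and nuclease, was read at 34.9, 31.5 and 37.2 CPM against 24.9, 27.4 and 27.8 CPM. These groups did not overlap either, at a log2 fold change of 0.37 ± 0.21 SE, with an edgeR adjusted p of 0.465. None of the 3 passed the test.

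The 8 chaperone genes had fitted values on both sides of 0, 4 above and 4 below, and none passed. HSPA5, which encodes BiP, the HSP70 of the ER (ENSG00000044574, minus strand of chromosome 9, 125234853 to 125241330), was read at 1981, 1234 and 1915 CPM with DNAJC12 and at 1220, 871 and 1184 CPM with empty vector. The groups did not overlap, although the second DNAJC12 library exceeded the first control by little. The log2 fold change was 0.65 ± 0.24 SE and the edgeR adjusted p 0.270. HYOU1, the nucleotide exchange factor of BiP, was read at 461, 699 and 554 CPM against 366, 396 and 415 CPM. Every DNAJC12 library was higher, the second most of all, at a log2 fold change of 0.54 ± 0.21 SE, with an edgeR adjusted p of 0.291. CANX, calnexin, the membrane lectin, was read at 1166, 501 and 893 CPM against 759, 500 and 573 CPM. DNAJC12 libraries 1 and 3 were above all controls and library 2 was not, so the groups overlapped at a log2 fold change of 0.48 ± 0.31 SE. It was 0.75 (edgeR adjusted p 0.0143) without DNAJC12 library 2 and 0.18 without library 1.

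Calreticulin, the lumenal partner of calnexin, lay on the other side. CALR (ENSG00000179218, plus strand of chromosome 19, 12938578 to 12944489) was read at 992, 1538 and 1096 CPM with DNAJC12 and at 1678, 1806 and 1756 CPM with empty vector. Every DNAJC12 library was below every control, by least in the second. The log2 fold change was -0.53 ± 0.21 SE and the edgeR adjusted p 0.312. MANF, a small BiP-binding protein that is also secreted, was read at 101, 117 and 120 CPM against 154, 144 and 169 CPM, again without overlap. Its log2 fold change was -0.46 ± 0.19 SE, with an edgeR adjusted p of 0.321. SDF2L1, a cofactor of the BiP cycle, was read at 34.1, 69.7 and 42.8 CPM against 46.3, 76.3 and 86.9 CPM. Its second DNAJC12 library lay inside the range of the controls and the groups overlapped, at a log2 fold change of -0.51 ± 0.32 SE that became -0.86 (edgeR adjusted p 0.0219) without that library and -0.32 without library 1. CRELD2, an ER stress-inducible secreted protein, had -0.38 ± 0.28 SE with overlapping groups. ALG12, on the other strand and overlapping CRELD2, reached 15.4 CPM, and CRELD2 itself at most 38.8 CPM, so the value of CRELD2 is uncertain where counting ignored strand. HSP90B1, the ER form of HSP90, was read at 496, 129 and 342 CPM with DNAJC12 and 375, 222 and 312 CPM with empty vector. The controls lay within the range of the DNAJC12 libraries, and the log2 fold change of 0.09 ± 0.42 SE turned negative without DNAJC12 library 1 (-0.37), without empty vector library 2 (-0.10) and after GC correction (-0.14).

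**Figure D2:**
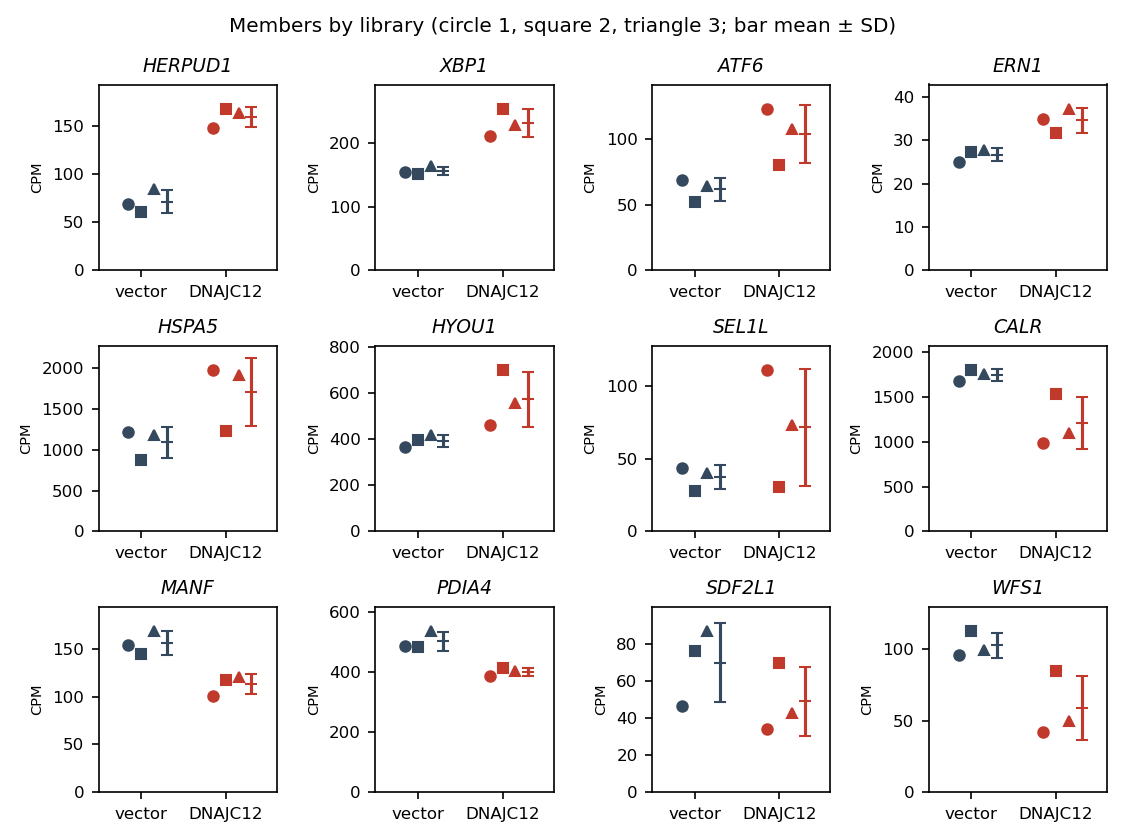
CPM of 12 members (y axes from 0) in the empty vector and DNAJC12 libraries, with circles, squares and triangles for libraries 1, 2 and 3 and bars for mean ± SD (n = 3). HERPUD1, XBP1, ATF6, ERN1, HSPA5 and HYOU1 show every DNAJC12 library above every control, CALR, MANF, PDIA4 and WFS1 show every one below, and SEL1L and SDF2L1 overlap.

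Genes of disulfide formation had fitted values near or below 0, and none of the 6 passed. PDIA4, a disulfide isomerase, was read at 387, 413 and 405 CPM with DNAJC12 and 486, 484 and 538 CPM with empty vector. It was the 1 gene of this group whose libraries did not overlap, and its spread was small. The log2 fold change was -0.32 ± 0.18 SE, with an edgeR adjusted p of 0.467. P4HB, the founding disulfide isomerase and a subunit of collagen prolyl hydroxylase, was read at 747, 1298 and 859 CPM against 1079, 1165 and 1094 CPM. The second DNAJC12 library was above all controls and the other two below them, and the fitted value was -0.20 ± 0.23 SE. Without that library it was -0.47 and passed (edgeR adjusted p 0.0306), and without library 1 it was -0.055. PDIA3, the isomerase that works with calnexin and calreticulin, had -0.21 ± 0.22 SE (its near-identical copy PDIA3P1 reached 13.6 CPM), and PDIA6 had 0.01 ± 0.19 SE with means of 209 CPM in both groups. Of the oxidases that recharge the isomerases, ERO1A had -0.17 ± 0.34 SE and ERO1B 0.14 ± 0.48 SE. ERO1B was scarce, at 1.64 to 7.51 CPM, and overlaps GPR137B on the other strand, which reached 7.08 CPM.

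Among the other 11 degradation genes, SEL1L had the largest fitted difference. SEL1L, the adaptor that holds the SYVN1 ligase (ENSG00000071537, minus strand of chromosome 14, 81471549 to 81533861), was read at 111, 30.7 and 73.4 CPM with DNAJC12 and at 43.4, 27.8 and 40.5 CPM with empty vector. DNAJC12 libraries 1 and 3 were well above the controls and library 2 lay among them. The log2 fold change was 0.95 ± 0.41 SE and the edgeR adjusted p 0.337, while without DNAJC12 library 2 they were 1.31 and 0.00202, and without library 1 they were 0.48 and 0.566. EDEM1, a mannosidase-like protein that marks glycoproteins for removal, showed the same order, at 111, 47.6 and 92.8 CPM against 70.3, 56.8 and 67.7 CPM. Its second DNAJC12 library was below every control, and its log2 fold change was 0.37 ± 0.30 SE, or 0.65 (edgeR adjusted p 0.0129) without that library and 0.11 without library 1. Its relative EDEM2 was read at 32.2, 51.5 and 33.2 CPM against 50.2, 49.5 and 46.7 CPM. There the second DNAJC12 library was the highest of all 6 and the other two the lowest, for a log2 fold change of -0.33 ± 0.24 SE, or -0.58 (edgeR adjusted p 0.0216) without library 2 and -0.21 without library 1. EDEM3, the scarcest of the EDEM genes, had 0.15 ± 0.45 SE.

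The ligase SYVN1 was read at 52.3, 94.3 and 65.9 CPM with DNAJC12 and 53.1, 57.6 and 54.0 CPM with empty vector, with a log2 fold change of 0.37 ± 0.24 SE. The first DNAJC12 library lay below the controls and the other two above, and the fold change was 0.11 without library 2 and 0.54 without library 1. SYVN1 overlaps FAU on the same strand and MRPL49 on the other, and these reached 966 and 325 CPM, so its counts are uncertain. The remaining members differed by less than their standard errors: the channel proteins DERL1 (0.11 ± 0.19), DERL2 (0.06 ± 0.20) and DERL3 (0.05 ± 0.43), the lectin OS9 (-0.16 ± 0.19), SELENOS, a membrane anchor of VCP (0.11 ± 0.20), and VCP itself (-0.06 ± 0.21). DERL3 was near the detection limit, with 9 to 16 counts in a library, and overlaps SMARCB1 on the other strand, which had up to 192 CPM. DERL2 overlaps MIS12 (up to 31.6 CPM) and DERL1 overlaps TBC1D31 (up to 11.5 CPM) in the same way.

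At the translocon, SEC61B, the small subunit of the protein channel, was read at 86.8, 79.8 and 92.2 CPM with DNAJC12 and 65.4, 78.8 and 69.5 CPM with empty vector. The groups did not overlap, though by a narrow margin, at a log2 fold change of 0.28 ± 0.19 SE, with an edgeR adjusted p of 0.569. SEC61A1, the channel itself, had 0.27 ± 0.23 SE and SEC24D, a cargo adaptor of the COPII coat that buds from the ER, 0.15 ± 0.28 SE, both with overlapping groups. The value of SEC61A1 was 0.018 without DNAJC12 library 2 and 0.42 without library 1. SEC61A1 overlaps RUVBL1 and MGLL on the other strand, which reached 145 and 114 CPM. WFS1, an ER membrane protein that bears on calcium stores and on the turnover of ATF6, had the lowest fitted value of all members. WFS1 (ENSG00000109501, plus strand of chromosome 4, 6269849 to 6303265) was read at 42.4, 84.4 and 49.9 CPM with DNAJC12 and at 95.8, 113 and 98.9 CPM with empty vector. Every DNAJC12 library was below every control, the second by least. The mean went from 102 ± 8.92 to 58.9 ± 22.4 CPM (SD, n = 3), and the fitted log2 fold change was -0.80 ± 0.27 SE (edgeR adjusted p 0.219). Without DNAJC12 library 2 these were -1.15 and 0.000624.

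Set against each other as groups, the folding genes had a lower median than the degradation genes. Of 14 folding genes, 6 had a fold change above 0 and 8 below, with a median log2 fold change of -0.19, and 0 were called. Of 12 degradation genes, 9 were above 0 and 3 below, with a median of 0.11, and 1 was called. Over all 14520 genes tested, 7972 were above 0 and 6548 below, with a median of 0.05, and 0.585% were called higher and 0.661% lower. Groups lay without overlap higher in 8.33% of degradation and 14.3% of folding genes, against 9.26% of all genes. They lay without overlap lower in 0% and 21.4%, against 10.8%. Library by library, the median of log2 CPM over the mean control level was 0.02, -0.23 and -0.12 for folding genes in DNAJC12 libraries 1 to 3, and 0.15, 0.03 and 0.11 for degradation genes. The degradation median was above the folding median in each of the 3, by 0.21 ± 0.07 on average (SD, n = 3). The gap in the empty vector libraries was -0.02 ± 0.03 (SD, n = 3). It is near 0 by construction, because each gene was set over its own empty vector mean, and so is no separate comparator. The 3 DNAJC12 values share that denominator. The folding median moved to -0.03 without DNAJC12 library 2 and to -0.04 without empty vector library 1. The degradation median was 0.04 without DNAJC12 library 1 and 0.24 without empty vector library 3. These medians describe the members and were not tested.

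**Figure D3:**
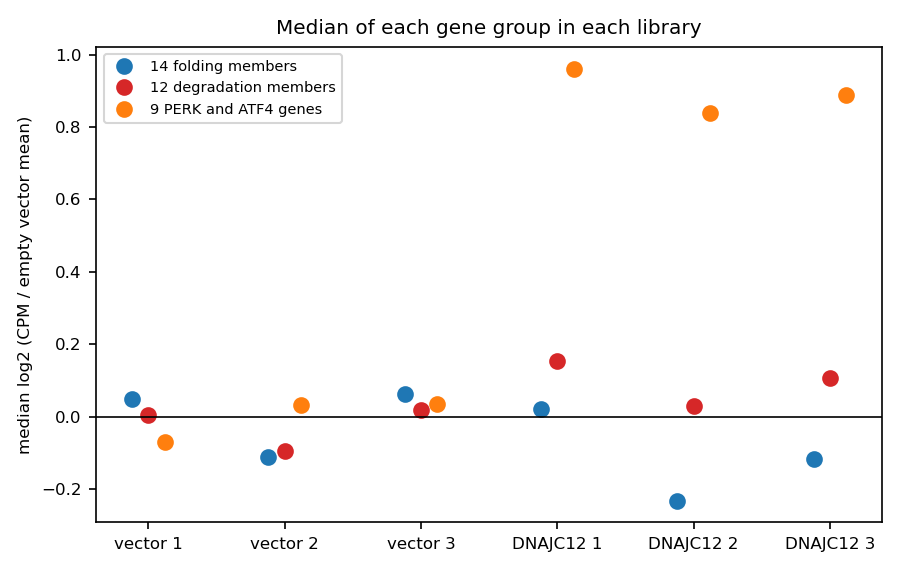
Median over 14 folding members, 12 degradation members and 9 listed PERK and ATF4 genes of log2 CPM relative to the empty vector mean (y axis), in each of the 6 libraries (x axis). The PERK and ATF4 medians are 0.84 to 0.96 in the DNAJC12 libraries, while both member groups stay between -0.23 and 0.15. All lists were chosen with earlier results of these data known.

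The second DNAJC12 library differed from the other two in step with the GC content of the member. Across the 33 members, GC content and the log2 ratio of that library to the mean of libraries 1 and 3 had a Pearson r of 0.82, as a description over genes that share these 3 libraries, and r was 0.78 over all genes tested that have a GC value. In 7 members, among them SEL1L, HSP90B1, CANX and EDEM1, that library was lower by more than 1 on the log2 scale, and in WFS1 (GC content 61.2%) and SDF2L1 (66.1%) it was higher by 0.87 and 0.86. HERPUD1 (48.1%) and XBP1 (48.5%) lay near the middle, at 0.11 and 0.21. The part of GC content in the group differences was not tested.

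**Figure D4:**
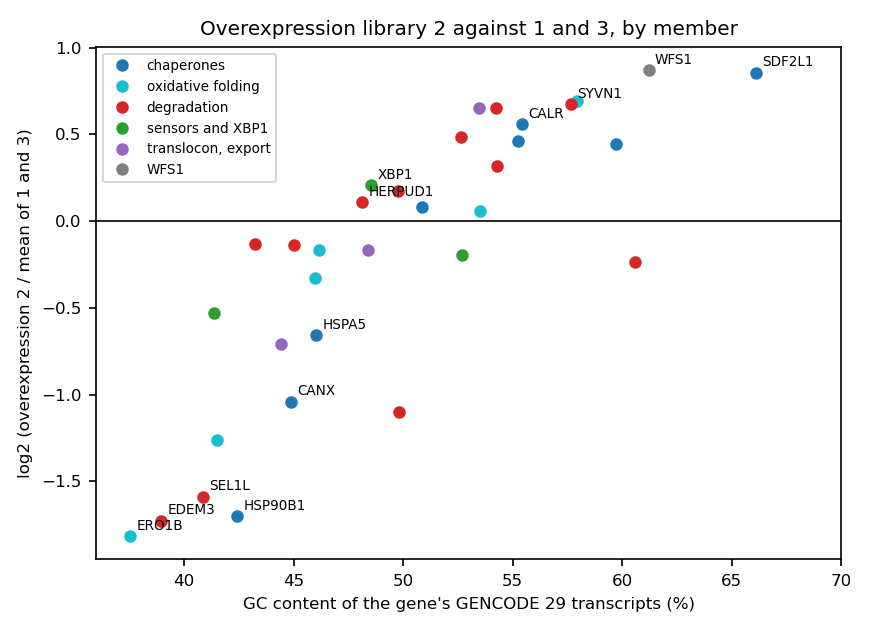
GC content of each member's transcripts (x axis, percent) against the log2 ratio of DNAJC12 library 2 to the mean of libraries 1 and 3 (y axis), coloured by role. Members of low GC content such as HSP90B1 and SEL1L lie below -1.5 and those of high GC content such as WFS1 and SDF2L1 above 0.8.

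Without both libraries numbered 2, 6 members were called higher and 5 lower (18.2 and 15.2% of members), where 10.3% and 8.41% of all genes were. The higher ones were HERPUD1, SEL1L, ATF6, HSPA5, CANX and EDEM1, and the lower ones WFS1, CALR, SDF2L1, MANF and EDEM2. After a correction for GC content, 7 were higher and 5 lower, at a background of 10.2% and 9.77%. The higher ones there were ATF6, HERPUD1, HSPA5, HYOU1, SEL1L, SYVN1 and XBP1, and the lower ones CALR, ERO1A, MANF, SDF2L1 and WFS1. In that fit SYVN1 had 0.42 (edgeR adjusted p 0.0145) and ERO1A -0.39 (0.0299). Without DNAJC12 library 2 alone, 7 were higher and 6 lower, at 12.1% and 10.4%, with XBP1 and P4HB added to those of the fit without both libraries numbered 2. In these 3 fits the calls shared were 4 higher (ATF6, HERPUD1, HSPA5, SEL1L) and 4 lower (CALR, MANF, SDF2L1, WFS1). The 3 fits use overlapping libraries, so they do not count as separate evidence. Calls of the fit without both libraries numbered 2 carry the limit on its p given for HERPUD1.

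Other genes of the pathway gave few calls outside a list of 9 PERK and ATF4 genes. None of 30 other folding genes, 24 other degradation genes or 23 other genes of translocation and export passed, in either direction, and their median log2 fold changes were 0.09, 0.28 and 0.03. At an unadjusted p under 0.05 there were 2 higher and 1 lower among the folding genes, 1 and 0 among the degradation genes, and 0 and 0 among the last list. Over all genes tested these shares were 7.25% and 6.86%. The DESeq2 Wald test called 1 higher and 1 lower of the folding genes and none of the others, where it called 1.99% and 1.9% of all genes. Without both libraries numbered 2, 4 folding, 5 degradation and 2 translocation genes were higher, and 1, 1 and 2 lower. In that fit 10.3% of all genes were called higher and 8.41% lower. The most abundant were GANAB, a glucosidase subunit (0.09 ± 0.23 SE), QSOX1, a sulfhydryl oxidase (-0.15 ± 0.26 SE), RNF5, a membrane ubiquitin ligase (0.12 ± 0.25 SE), TMUB1 (0.32 ± 0.27 SE), SEC61G, another subunit of the channel (-0.47 ± 0.29 SE), and SSR2, a translocon-associated protein (0.04 ± 0.25 SE). Of the 9 listed PERK and ATF4 genes, 4 rose and none fell, and 8 lay without overlap above the controls, beside 0.585% of all genes called higher and 9.26% without overlap higher. The list was chosen with earlier results of these data known, so these shares do not test it. The pseudokinase TRIB3 rose by 3.10 ± 0.26 SE, asparagine synthetase ASNS by 2.52, the mTORC1 inhibitor SESN2 by 2.19, and CHAC1, which breaks down glutathione, went from 26.7 ± 0.834 to 107 ± 28.2 CPM (SD, n = 3). The number of these 9 that rose was 8 without DNAJC12 library 2, without both libraries numbered 2 and after GC correction (12.1%, 10.3% and 10.2% of all genes), and 2 without empty vector library 1 or 3. ATF4 itself had 0.74 ± 0.18 SE (edgeR adjusted p 0.0923), DDIT3, the factor CHOP, 0.81 ± 0.23 SE (0.149), and the PERK kinase gene EIF2AK3 -0.20 ± 0.34 SE (0.851). RNA counts do not show whether PERK was active, and its part in these rises was not tested.

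The deposited FPKM divide counts by depth and by the deposited gene length, so ranks between genes also depend on that length. On this scale the members spanned from a mean over the 6 libraries of 540 FPKM for CALR to 0.167 FPKM for DERL3. HSPA5 came second, at 432 ± 102 FPKM with DNAJC12 and 277 ± 47.7 FPKM with empty vector (SD, n = 3), and CALR stood at 441 ± 109 and 640 ± 27.0 FPKM. CALR was thus above HSPA5 in all 3 empty vector libraries, and the group means with DNAJC12 lay within an SD of each other. P4HB, PDIA4, CANX and VCP followed, with means over all libraries of 195, 137, 116 and 104 FPKM. HERPUD1 was 18th of 33, at 30.7 ± 2.17 and 13.8 ± 2.30 FPKM (SD, n = 3). SEL1L, the sensors ERN1 and ATF6, and EDEM3 were among the scarcer members, at means of 5.64, 2.79, 10.4 and 1.16 FPKM.

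**Figure D5:**
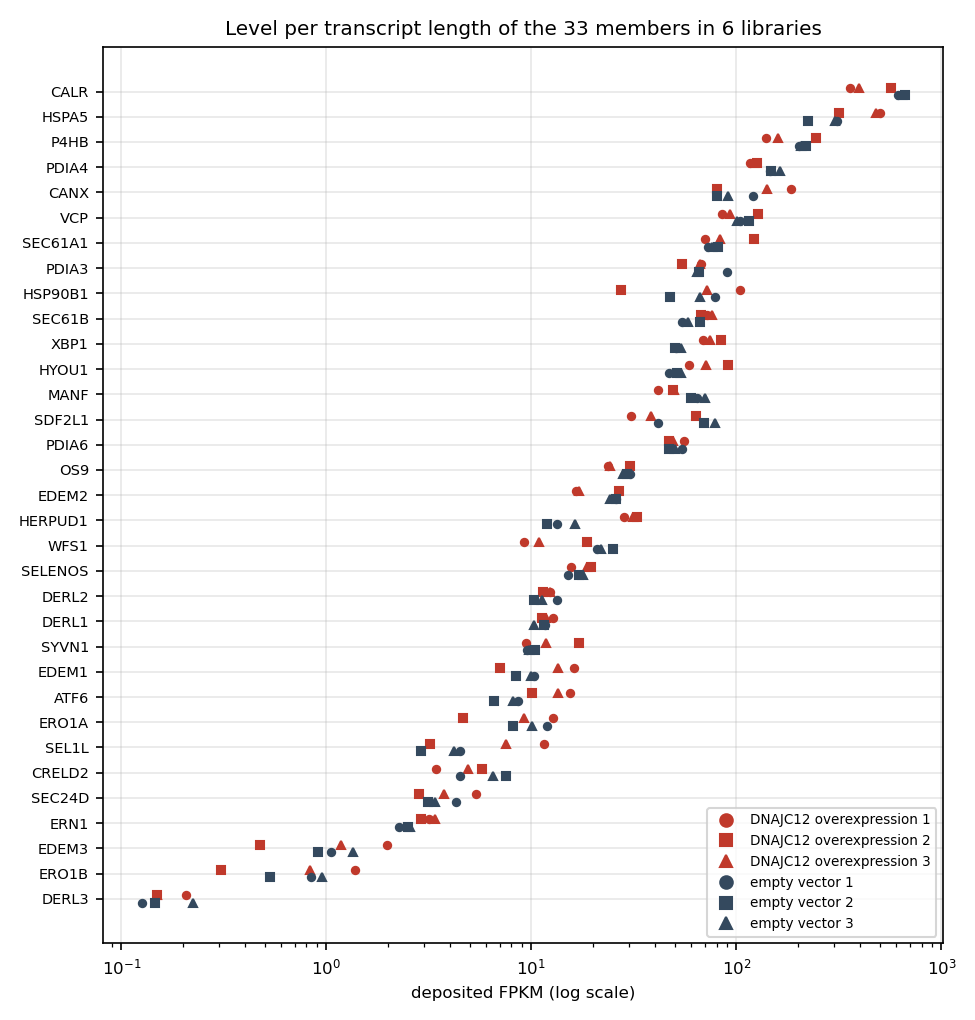
Deposited FPKM (x axis, log scale) of the 33 members in the 3 DNAJC12 libraries (red) and the 3 empty vector libraries (dark), ordered by the mean over all 6, with 1 symbol per library number. Levels run from 540 FPKM for CALR to 0.167 FPKM for DERL3, and HERPUD1 shows the red symbols apart from the dark ones.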

How the data were processed

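The authors deposited 2 tables of 58735 genes, one of raw read counts and one of FPKM, each with a column for every one of the 6 libraries. Per the submitters' processing notes, HISAT2 2.0.5 and the build hg19 were used. All gene coordinates and symbols in the tables equal GENCODE 29 on GRCh38, so coordinates are given as GRCh38. The counting program and its strand setting stand as not given in the sources used here. The FPKM that the authors deposited matched counts scaled by gene length and by a depth of 0.854 to 1.10 times the library total. Totals ran from 17967283 to 18887497 counts, and genes not tested held 0.129% of them.

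Groups and numbers came from the sample titles. Counts were fitted over 14520 genes with edgeR 4.0.16 in R 4.3.3 (quasi-likelihood test, TMM, filterByExpr with minimum count 10 and minimum total 15, robust dispersions), with Benjamini-Hochberg adjustment over all of them and a threshold of 0.05. CPM are TMM-scaled. The SE is the log2 fold change over the root of the F statistic. Medians and counts describe gene lists, which were not tested. The 33 members and all lists were chosen with earlier results of these data known. All members are named; of other lists, genes that passed, or the 2 most abundant per length where none passed, and DNAJC12. The alternatives comprised size factors from DESeq2 1.42.0, its Wald test, dropping the filter, a replicate block, leaving out each library, leaving out both libraries numbered 2, and a GC correction (loess of log2 CPM with prior count 2 on transcript GC content, span 0.3) without and with the block. The edgeR fit, without and with the GC correction, and the DESeq2 test were also run on simulated counts. The simulation held no GC trend, used no block and left out no library, so it does not cover those conditions. Promoter sequences are RefSeq's, and Python 3.11.15 with pandas 2.3.3 and matplotlib 3.10.9 drew the figures. With 3 libraries a group, the smallest p of an exact permutation test is 0.1, and none was run.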

Additional observations from a re-analysis of the deposited data

How the results depend on the processing

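HERPUD1 stayed above its controls in all 13 alternatives. Of 429 values of the members under alternatives, 401 kept their direction, and the 28 that did not belonged to 9 members whose changes were under their standard errors. The number of genes called moved widely: against 85 higher and 96 lower, the DESeq2 Wald test called 289 and 276, a fit with no filter 366 and 322, the fit without both libraries numbered 2 1514 and 1240, and the GC correction 1484 and 1419. Leaving out 1 library gave 15 to 1806 higher and 6 to 1560 lower. Against 1 member higher and 0 lower, no filter gave 2 and 1, leaving out both libraries numbered 2 gave 6 and 5, the GC correction 7 and 5, and leaving out 1 library 0 to 7 and 0 to 6. Against 4 of 86 other pathway genes higher and 0 lower, leaving out both libraries numbered 2 gave 19 and 4, the GC correction 14 and 5, and leaving out 1 library 2 to 24 and 0 to 4, while the DESeq2 Wald test and no filter each gave 1 lower. The cause was not tested, and each fit that leaves out a library has fewer samples. HERPUD1 also had a small edgeR p before adjustment with no filter (2.23e-06, at 1.13 ± 0.24 SE). With the replicate block the edgeR p was 2.79e-10, at 1.17 ± 0.19 SE. Counts called in these fits carry the limit given for HERPUD1 without both libraries numbered 2.

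The replicate numbers were used as a block in 2 fits, without and with the GC correction. Deviations from the group means correlated between libraries of the same number at 0.45, 0.58 and 0.03 for numbers 1 to 3, and DNAJC12 library 3 correlated best with empty vector library 1, so the numbers were not taken to pair the libraries. Of 14520 genes tested, the replicate block gave 1011 higher and 926 lower. Of the 33 members it gave 6 higher and 3 lower (18.2% and 9.09%), and of 86 other pathway genes 12 higher and 1 lower. With the GC correction and the block these were 1695 and 1631 of all genes, 9 and 5 of the members (27.3% and 15.2%), and 17 and 8 of the other pathway genes. Under the block, HSP90B1 was at -0.078, ERO1B at -0.016 and EDEM3 at -0.025, and with GC correction and block HSP90B1 was at -0.18, PDIA6 at -0.028, ERO1B at -0.22, EDEM3 at -0.19 and DERL2 at -0.022.

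Direction turned under the GC correction alone for HSP90B1 (-0.14), PDIA6 (-0.022), ERO1B (-0.19) and EDEM3 (-0.17). PDIA6 was also at -0.017 with no filter and at -0.0016 without both libraries numbered 2. With each library left out in turn, the members that turned spanned -0.37 to 0.47 for HSP90B1, -0.079 to 0.059 for PDIA6, -0.54 to 0.14 for ERO1A, -0.43 to 0.53 for ERO1B, -0.40 to 0.53 for EDEM3, -0.050 to 0.16 for DERL2, -0.15 to 0.32 for DERL3, -0.24 to 0.042 for VCP and -0.14 to 0.35 for SEC24D. The median of the folding members ran from -0.29 to -0.027 and that of the degradation members from 0.044 to 0.24. The cause was not tested. Depth limits DERL3, with 9 to 16 counts in a library.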

Other observations

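Of the other folding genes, 3 stood out by their values and were singled out after those were seen, and none passed the test. DNAJB9, a J-domain co-chaperone of BiP inside the ER, was read at 40.9, 18.8 and 36.05 CPM with DNAJC12 and 17.8, 11.2 and 13.9 CPM with empty vector. The groups did not overlap, and the second DNAJC12 library was the lowest of its group, as for SEL1L. The log2 fold change was 1.16 ± 0.33 SE with an edgeR adjusted p of 0.143. TXNDC5, a disulfide isomerase, was read at 48.9, 60.8 and 56.8 CPM against 33.5, 28.5 and 38.3 CPM, at 0.73 ± 0.21 SE, with an edgeR adjusted p of 0.1503. MLEC, malectin, an ER lectin that binds newly made glycoproteins, was read at 184, 200 and 180 CPM against 303, 333 and 321 CPM. Its libraries lay close together within each group, at a log2 fold change of -0.76 ± 0.18 SE, with an edgeR adjusted p of 0.0827.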
